A study of Mus musculus with 4 samples.

Results

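Fatty acids and pyruvate are burned in the mitochondrial matrix, and the 32 genes described here encode the core of that machinery and its partners. They were the 32 names fixed for 2 linked pathways, 18 in fatty acid oxidation and 14 in pyruvate entry and the tricarboxylic acid (TCA) cycle, and each name was looked up as a row of the deposited gene table. All 32 were among its 14936 genes and all 32 passed the filter on low counts that left 10993 genes to test, which asked for at least 1 CPM in at least 2 libraries (CPM is the count relative to the library's scaled total, as described under processing). The rule that picks them is a list of names by function and reads no measured value, although the list was drawn up with earlier results of these data known.

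The RNA came from mouse bone marrow-derived macrophages, primary cells grown out of bone marrow with the growth factor M-CSF, and was read by mRNA sequencing. There were 4 libraries, 1 for each group. The groups were labelled KO, for Phlpp1-deficient (1 of the 2 labels spells it Phkpp1), treated with IL-4 for 12 h; WT treated with IL-4 for 12 h; KO treated with IL-4 for 24 h; and WT treated with IL-4 for 24 h. All 4 shared IL-4 at 20 ng/ml, so there was no untreated group, and every comparison below is between IL-4-treated cells. The labels give no strain, age, allele or deletion design, and name no animal or culture for a library, so that p-values here measure no more than the spread between 4 libraries, possibly a technical one.

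Long-chain fatty acids enter the matrix as carnitine esters and are shortened in rounds of dehydrogenation, hydration, a second dehydrogenation and thiolysis, which release acetyl-CoA and pass electrons to the electron transfer flavoprotein. The TCA cycle condenses acetyl-CoA with oxaloacetate and oxidizes it to carbon dioxide, and the pyruvate dehydrogenase complex feeds it from sugar. In macrophages, IL-4 acts through STAT6, and oxidative metabolism, the coactivator PGC-1β and fatty acid use are classically tied to this alternative activation, while inflammatory stimuli break the cycle at isocitrate dehydrogenase and succinate dehydrogenase.

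Phlpp1, which encodes the phosphatase named in the labels, went against them. It had 1751 counts at 12 h and 2333 counts at 24 h in the libraries labelled KO, against 490 and 564 counts in those labelled WT. The fold of KO over WT was 3.61 at 12 h (95% counting interval 3.26 to 4.0) and 4.01 at 24 h (3.66 to 4.41), with a log2 change of 1.93 (SE 0.11, adjusted p = 3.00e-14, edgeR quasi-likelihood test). A gene-level count does not show which exons the reads came from, so the groups are called by their labels throughout and no direction below is drawn from loss of Phlpp1. Library totals were 36707999 to 41770309 counts. The 10 macrophage markers were far above 0 in every library, and their summed level was 17856 and 16906 CPM in the libraries labelled KO, against 21851 and 20614 CPM in those labelled WT. Of these 10 markers, 6 were called lower in the libraries labelled KO at an adjusted p under 0.05. Over all tested genes, 5.49% were called lower and 4.35% higher. Stromal markers summed to 153 and 186 CPM in the libraries labelled KO, against 94.6 and 111 CPM in those labelled WT, and 7 of 8 tested were called higher. Of the stromal markers too low to test, Lum had 3 and 3 counts in the libraries labelled KO, against 13 and 12 in those labelled WT. Thy1 had 8 and 31 counts, against 44 and 18. Neutrophil markers summed to 864 and 763 CPM in the libraries labelled KO, against 1115 and 1033 CPM in those labelled WT, with 5 of 9 tested called lower and Ly6g at 0 in both libraries labelled WT. Erythroid and megakaryocyte markers summed to 74.1 and 63.2 CPM in the libraries labelled KO, against 94.0 and 109 CPM in those labelled WT. The 3 tested were the megakaryocyte genes Pf4, Ppbp and Itga2b, and all 3 were called lower. The erythroid genes were too low to test. Hba-a1 had 30 and 9 counts in the libraries labelled KO, against 6 and 30 in those labelled WT, and Hbb-bs and Hbb-bt had at most 4. Mast cell markers summed to 4.09 and 5.12 CPM in the libraries labelled KO, against 8.6 and 9.52 CPM in those labelled WT, and 2 of 3 tested were called lower. Lymphocyte markers summed to at most 6.20 CPM, with Cd3e at 0 in the KO library at 24 h, and dendritic cell markers to at most 2.36 CPM. The part of these cell types in the results below was not tested.

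Together the 32 genes took 0.312% and 0.318% of counts in the libraries labelled KO at 12 h and 24 h, against 0.306% and 0.311% in those labelled WT. The highest of a gene's 4 CPM values divided by its lowest had a median of 1.13 over the 32 genes, and ranged between 1.07 for Mdh2 and 1.52 for Ppargc1b. This ratio was under 1.2 for 23 of the 32 (71.9%), beside 45.1% of all tested genes and 58.7% of the 7842 tested genes that had at least 361 counts in every library, which is the lowest count of any of the 32. The TCA cycle genes had a median of 1.12, with Suclg2 highest at 1.26, and the fatty acid oxidation genes had a median of 1.18, beside 1.17 over the genes with at least 361 counts. Under 1.2 were 85.7% of the TCA cycle genes and 61.1% of the fatty acid oxidation genes. The share of fatty acid oxidation genes was near the 58.7% of genes with at least 361 counts in every library, a set not matched for count. No gene reached a log2 ratio of 1 in either direction in any of the 4 ratios between 2 libraries: KO over WT ranged between -0.28 and 0.52 at 12 h and between -0.34 and 0.52 at 24 h, and 24 h over 12 h ranged between -0.33 and 0.18 in KO and between -0.29 and 0.21 in WT.

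**Figure D1:**
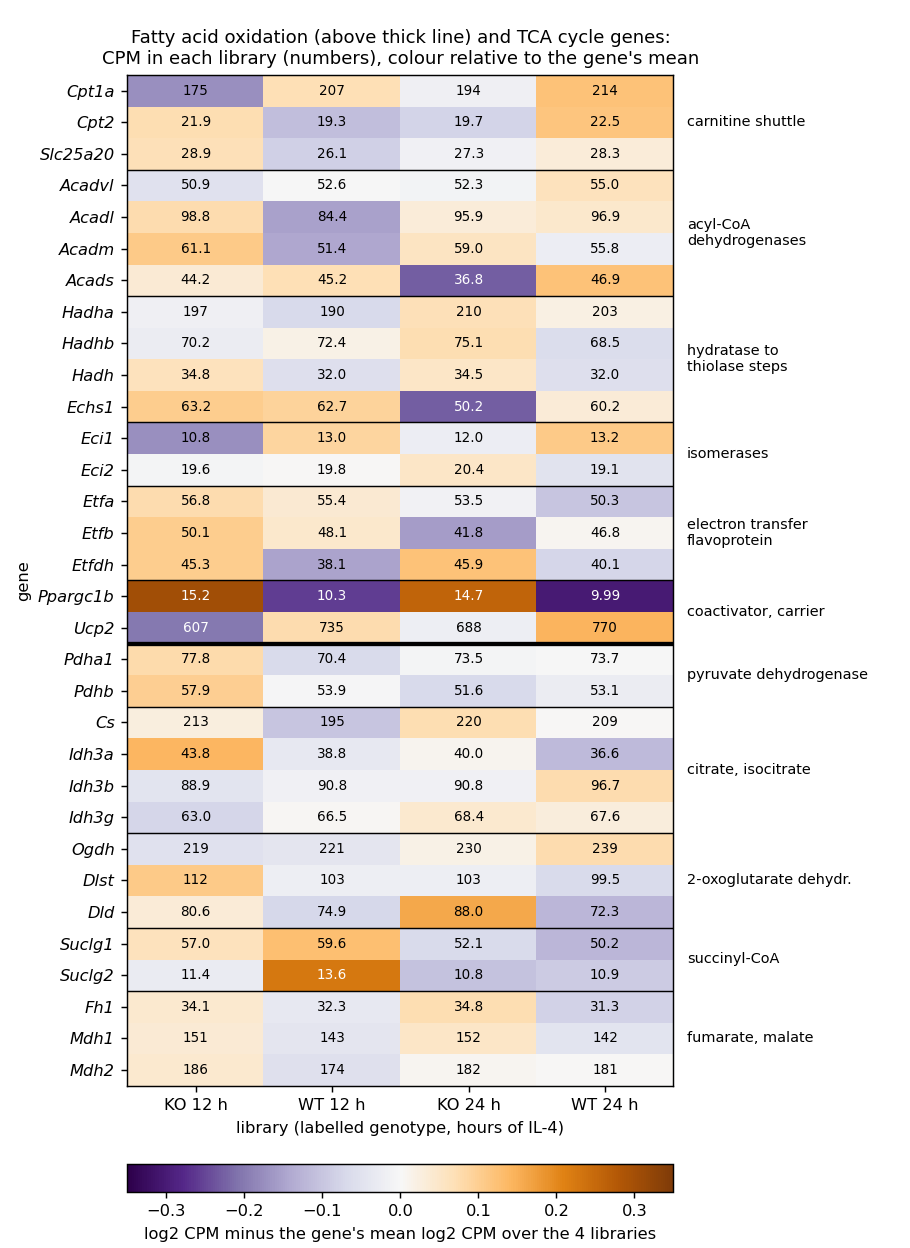
CPM of the 32 genes (rows, by function) in the 4 libraries (columns), with the value printed in each cell and the colour giving log2 of the value over that gene's mean. Most rows are pale, 23 of 32 varying by less than 1.2-fold, and the strongest colours are in the row of Ppargc1b, with 15.2 and 14.7 CPM in KO, against 10.3 and 9.99 CPM in WT.

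Levels between genes were compared per base of transcript, as the deposited FPKM (fragments per kilobase of transcript, relative to the library total). Ucp2, an inner-membrane carrier related to the uncoupling protein of brown fat, was highest with a mean of 406.5 FPKM over the 4 libraries, followed by the mitochondrial malate dehydrogenase Mdh2 at 141 FPKM, the cytosolic Mdh1 at 75.1 FPKM, the trifunctional protein subunit Hadha at 73.7 FPKM and citrate synthase, Cs, at 70.4 FPKM. The ranges of Ucp2 (361 to 436 FPKM) and Mdh2 (134 to 149 FPKM) did not overlap with each other or with those of the next 3 genes, whereas Mdh1 (70.7 to 78.9 FPKM), Hadha (69.3 to 78.3 FPKM) and Cs (64.9 to 75.1 FPKM) overlapped. At the low end were Suclg2, the GTP-forming subunit of succinyl-CoA ligase, at 2.97 FPKM and the coactivator gene Ppargc1b at 1.2 FPKM. The transcript length behind these values, recovered from count and FPKM, differed by over 1.5 times from the GENCODE principal transcript for 7 genes, namely Hadhb, Eci2, Etfa, Ppargc1b, Ucp2, Ogdh and Fh1. With the principal length, the mean was 175 for Ucp2 and 124 for Mdh2, 49.8 for Hadha, 38.8 in place of 5.58 for Etfa and 3.44 for Ppargc1b, so that the order of levels depends on the length used while ratios of one gene between libraries do not.

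Transcript ratios of partner subunits of one complex varied between libraries by 7.61% to 30.0% of the lowest. The ratio of Hadha to Hadhb, the 2 chains of the trifunctional protein, was 4.77 at 12 h and 4.73 at 24 h in the libraries labelled KO, against 4.46 and 5.02 in those labelled WT. Suclg1, the shared chain of succinyl-CoA ligase, exceeded Suclg2 by 14.1 and 13.6 times in the libraries labelled KO, against 12.4 and 13.0 times in those labelled WT. Idh3a, the catalytic subunit of NAD-dependent isocitrate dehydrogenase, stood to its partner Idh3b at 0.312 and 0.279 in the libraries labelled KO, against 0.270 and 0.24 in those labelled WT, and to Idh3g at 0.417 and 0.351 in the libraries labelled KO, against 0.35 and 0.325 in those labelled WT. These were the widest spreads among 7 pairs, 30.0% and 28.3% between the lowest and highest library, and the narrowest was 7.61% for Idh3b to Idh3g. Pdha1 to Pdhb, the E1 chains of pyruvate dehydrogenase, ranged between 0.742 and 0.810 over the 4 libraries. With principal lengths the mean ratio of Hadha to Hadhb was 1.43 in place of 4.75, and that of Etfa to Etfb, the chains of the electron transfer flavoprotein, 0.744 in place of 0.108.

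**Figure D2:**
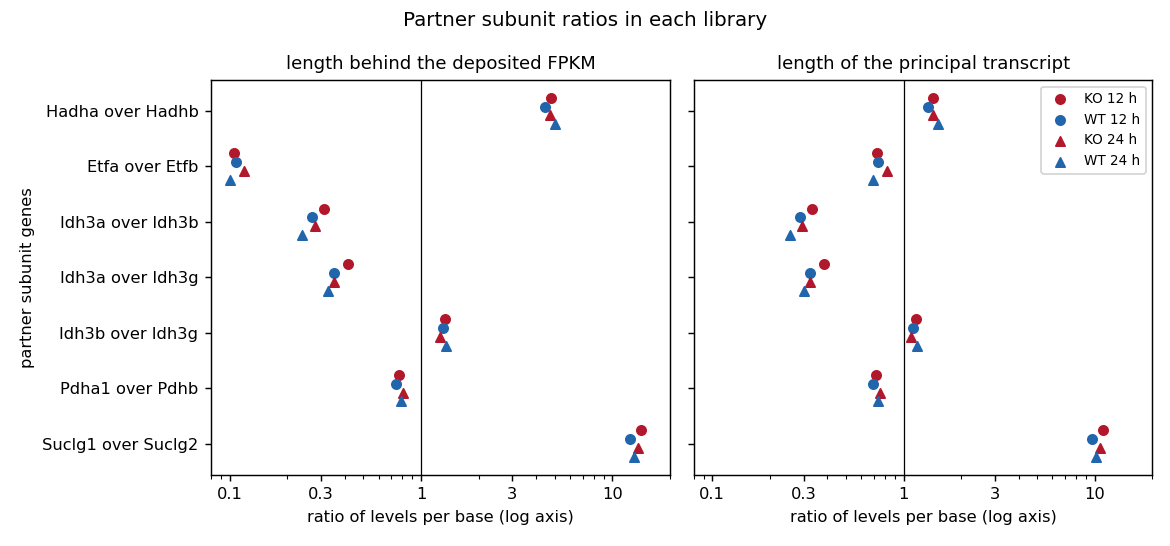
Ratio of the levels per base of partner subunit genes (log axis) in each library, with the length behind the deposited FPKM on the left and the GENCODE principal transcript length on the right; red is KO, blue is WT, circles 12 h and triangles 24 h. The 4 libraries of a pair lie within 30.0% of the lowest, while the choice of length moves Hadha over Hadhb to a mean of 1.43 in place of 4.75 and Etfa over Etfb to 0.744 in place of 0.108.

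The genotype labels were compared with both times in 1 model, which leaves 1 residual degree of freedom. To this the edgeR test adds prior degrees of freedom (median 29.3) from the spread shared over the tested genes. Where 1 library is left out below, the other term is dropped too, so that such a change mixes genotype and time. At an adjusted p under 0.05, 2 of the 32 genes were called: Ppargc1b was higher and Ucp2 was lower in the libraries labelled KO. Over all tested genes 4.35% were called higher, 5.49% lower and 9.84% in either direction. With 32 genes, 1 call in each direction is near these shares, and no difference from them was tested. The median log2 change was 0.05 over the 32 genes, 0.04 over fatty acid oxidation and 0.06 over the TCA cycle, beside -0.002 over all tested genes. Of the 32, 19 lay above 0, beside 5448 of the 10993 tested genes. At an unadjusted p under 0.05, edgeR had 5 of the 32 (Ppargc1b, Ucp2, Cpt1a, Etfdh and Dld), beside 2307 of the 10993 tested genes. DESeq2 called 0 of the 32 (517 of all tested genes) and had 3 of the 32 at an unadjusted p under 0.05, beside 1295 of all tested genes. With both tools the share of the 32 was near that of all tested genes, if somewhat lower, and the difference was not tested.

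Ppargc1b encodes PGC-1β, a transcriptional coactivator of nuclear receptors that drives oxidative and mitochondrial genes, and lies on the minus strand of GRCm38 chromosome 18 at chr18:61298136-61400431. It had 15.2 CPM at 12 h and 14.7 CPM at 24 h in the libraries labelled KO, against 10.3 and 9.99 CPM in those labelled WT, which correspond to 619 and 549 counts against 424 and 361 counts. Both KO values lay above both WT values, and the levels at the 2 times were nearly alike within each label. The fold was 1.48 at 12 h (95% counting interval 1.3 to 1.67) and 1.47 at 24 h (1.29 to 1.69), and the log2 change was 0.56 (SE 0.15, adjusted p = 0.00965, edgeR quasi-likelihood test with Benjamini-Hochberg adjustment). The call was lost with DESeq2 (adjusted p = 0.139), without the time term (0.0742) and without any 1 of the 4 libraries (0.0588 to 0.324), with a log2 change of 0.54 to 0.58 on leaving out a library. In bulk RNA, a different number of cells of a type and a different amount of RNA per cell cannot be told apart.

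Ucp2, at chr7:100493337-100502020 on the plus strand, was the other call. It had 607 CPM at 12 h and 688 CPM at 24 h in the libraries labelled KO, against 735 and 770.2 CPM in those labelled WT. Both KO values lay below both WT values. The fold was 0.826 at 12 h (0.812 to 0.840) and 0.893 at 24 h (0.878 to 0.908), with a log2 change of -0.22 (SE 0.06, adjusted p = 0.0147, edgeR quasi-likelihood test). The call was lost with DESeq2 (0.0732), without the filter on low counts (0.0611), without the time term (0.264) and without any 1 of the 4 libraries (0.0585 to 0.843), with a log2 change of -0.31 without the KO library at 24 h and -0.13 without the KO library at 12 h. Dnajb13 overlaps Ucp2 exons on the other strand, and its 345 counts over the 4 libraries are 0.318% of those of Ucp2. The summed level of the 18 fatty acid oxidation genes was 1650.3 and 1731 CPM in the libraries labelled KO, against 1762 and 1833 CPM in those labelled WT. Without Ucp2 the other 17 genes summed to 1044 and 1043 CPM in the libraries labelled KO, against 1028 and 1063 CPM in those labelled WT.

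**Figure D3:**
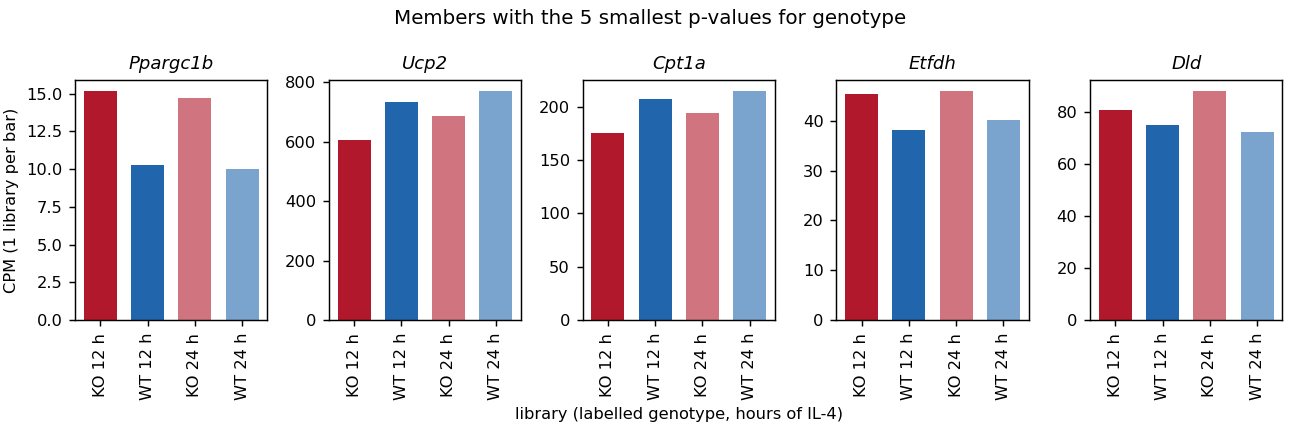
CPM in each library of the 5 genes with the lowest genotype p, KO left of WT at each time; each bar is 1 library and starts at 0. Ppargc1b and Etfdh stand higher and Ucp2 and Cpt1a lower in both libraries labelled KO, and Dld reaches 88.0 CPM in KO at 24 h beside 72.3 CPM in WT.

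The other 30 genes did not pass. In carnitine transport, Cpt1a, the malonyl-CoA-sensitive outer-membrane enzyme that commits long-chain fatty acids to import, had 175 and 194 CPM in the libraries labelled KO, against 207 and 214 CPM in those labelled WT, with a log2 change of -0.19 (SE 0.07, adjusted p = 0.0730). Both KO values lay below both WT values, and without the KO library at 12 h the change was -0.115. Its inner-membrane partner Cpt2, which regenerates acyl-CoA in the matrix, had 21.9 and 19.7 CPM in the libraries labelled KO, against 19.3 and 22.5 CPM in those labelled WT. The order of the labels was thus opposite at the 2 times. The carnitine-acylcarnitine carrier Slc25a20 ranged between 26.1 and 28.9 CPM with overlapping groups.

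The acyl-CoA dehydrogenases, which start each round and are sorted by chain length, lay on both sides of 0. Acadl, the long-chain enzyme and the most abundant of the 4 per base (mean 48.3 FPKM), had 98.8 and 95.9 CPM in the libraries labelled KO, against 84.4 and 96.9 CPM in those labelled WT, and the groups overlapped (log2 change 0.11, SE 0.08, adjusted p = 0.503). The medium-chain Acadm had 61.1 and 59.0 CPM in the libraries labelled KO, against 51.4 and 55.8 CPM in those labelled WT. The short-chain Acads had 44.2 and 36.8 CPM in the libraries labelled KO, against 45.2 and 46.9 CPM in those labelled WT, and the KO library at 24 h stood apart from the other 3. Neither passed (adjusted p = 0.282 and 0.283). The very-long-chain Acadvl ranged between 50.9 and 55.0 CPM, and its exons overlap those of Dvl2 on the other strand, whose counts are 54.2% of those of Acadvl.

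Electrons from these dehydrogenases pass through Etfa and Etfb to Etfdh, the oxidoreductase that hands them to ubiquinone. Etfdh, at chr3:79603788-79629500 on the minus strand, had 45.3 and 45.9 CPM in the libraries labelled KO, against 38.1 and 40.1 CPM in those labelled WT. The groups did not overlap, with folds of 1.19 (1.11 to 1.27) at 12 h and 1.15 (1.07 to 1.23) at 24 h, and the change did not pass (log2 change 0.22, SE 0.09, unadjusted p = 0.0226, adjusted p = 0.146). Etfb had 50.1 and 41.8 CPM in the libraries labelled KO, against 48.1 and 46.8 CPM in those labelled WT, and Etfa ranged between 50.3 and 56.8 CPM.

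Of the later steps of the round, Hadha, whose product carries the long-chain hydratase and hydroxyacyl-CoA dehydrogenase activities, had 197 and 209.5 CPM in the libraries labelled KO, against 190.4 and 203 CPM in those labelled WT (log2 change 0.05, SE 0.07, adjusted p = 0.762). Hadhb, the thiolase chain, lies head to head with Hadha on chromosome 5 and ranged between 68.5 and 75.1 CPM. The short-chain hydratase Echs1 had 63.2 and 50.2 CPM in the libraries labelled KO, against 62.7 and 60.2 CPM in those labelled WT, so that the KO library at 24 h stood lowest. Its exons overlap those of Paox on the other strand, whose counts are 33.9% of those of Echs1. Hadh, the short-chain hydroxyacyl-CoA dehydrogenase, ranged between 32 and 34.8 CPM with both KO values above both WT values. Of the enoyl-CoA isomerases, which handle double bonds of unsaturated fatty acids, Eci1 had 10.8 and 12.0 CPM in the libraries labelled KO, against 13.0 and 13.2 CPM in those labelled WT (adjusted p = 0.499), and Eci2 ranged between 19.1 and 20.4 CPM.

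**Figure D4:**
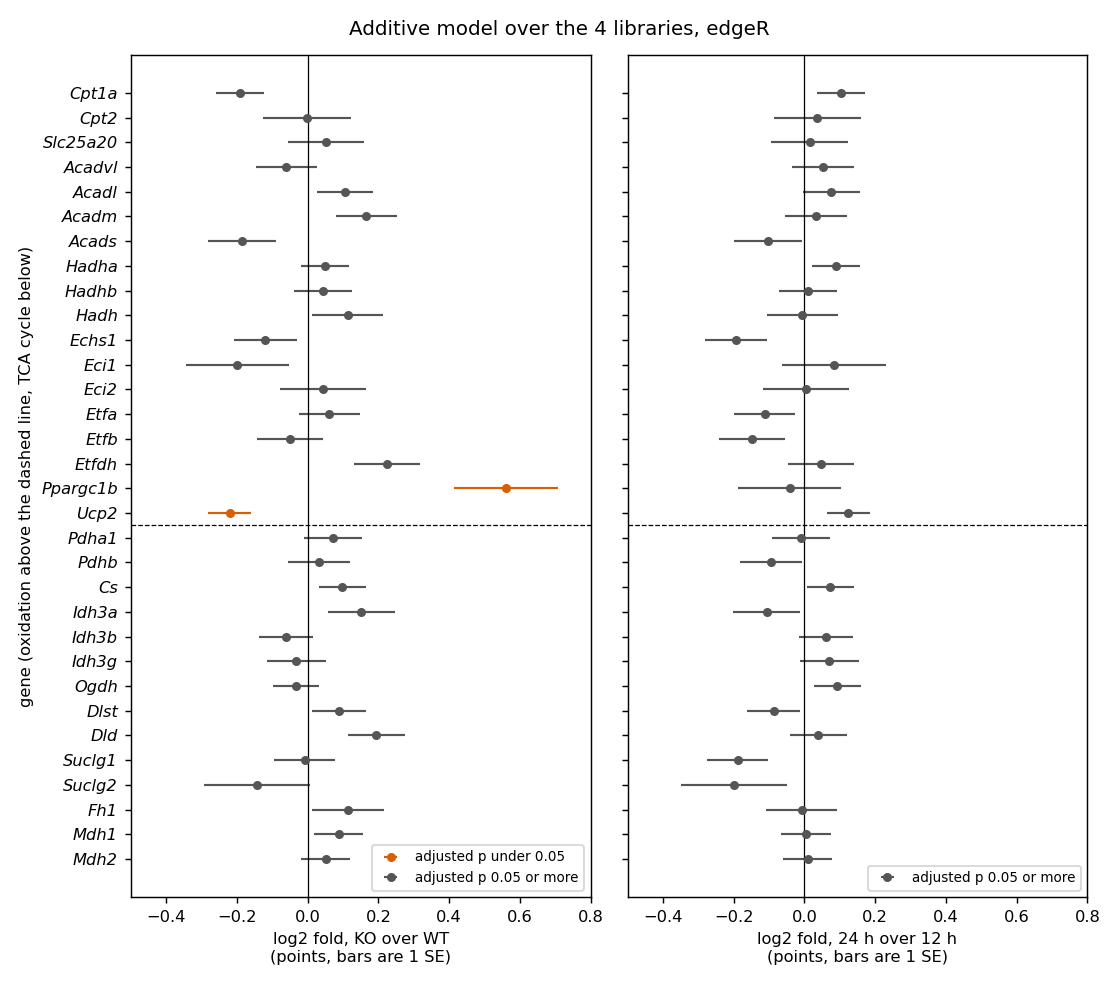
Log2 change of the 32 genes in the model of both labels, KO over WT on the left and 24 h over 12 h on the right; points are estimates and bars 1 SE, with called genes in orange. On the left Ppargc1b (0.56) and Ucp2 (-0.22) are called and the TCA cycle genes sit mostly just above 0; on the right no gene is called.

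In pyruvate entry and the TCA cycle none of the 14 genes passed, beside 9.84% of all tested genes. Of the 14, 9 lay above 0, beside 5448 of the 10993 tested genes, a difference that was not tested. Pdhb had 57.9 and 51.6 CPM in the libraries labelled KO, against 53.9 and 53.1 CPM in those labelled WT, and Pdha1 ranged between 70.4 and 77.8 CPM. Cs, the first enzyme of the cycle, had 213 and 220.1 CPM in the libraries labelled KO, against 195 and 209 CPM in those labelled WT (log2 change 0.10, SE 0.07, adjusted p = 0.451). Both KO values lay above both WT values. At the isocitrate step, Idh3a had 43.8 and 40.0 CPM in the libraries labelled KO, against 38.8 and 36.6 CPM in those labelled WT, with groups that did not overlap (adjusted p = 0.394). Idh3b had 88.9 and 90.8 CPM in the libraries labelled KO, against 90.8 and 96.7 CPM in those labelled WT, and its exons overlap those of Nop56 on the other strand, whose counts are 56.1% of those of Idh3b, while Idh3g ranged between 63.0 and 68.4 CPM.

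Of the 2-oxoglutarate dehydrogenase complex, Dlst, its succinyltransferase core, had 112 and 103 CPM in the libraries labelled KO, against 103 and 99.5 CPM in those labelled WT. Dld, the lipoamide dehydrogenase shared with pyruvate dehydrogenase, at chr12:31331277-31351453 on the minus strand, had 80.6 and 88.0 CPM in the libraries labelled KO, against 74.9 and 72.3 CPM in those labelled WT (log2 change 0.19, SE 0.08, unadjusted p = 0.0227, adjusted p = 0.146). The Dld groups did not overlap, and the distance was wider at 24 h (1.22-fold, 1.16 to 1.28) than at 12 h (1.08-fold, 1.02 to 1.13), a difference between times that was not tested. Ogdh, the E1 enzyme, ranged between 219 and 239 CPM. Suclg1 had 57.0 and 52.1 CPM in the libraries labelled KO, against 59.6 and 50.2 CPM in those labelled WT, and Suclg2 ranged between 10.8 and 13.6 CPM. Mdh2, which regenerates oxaloacetate, had 186 and 182 CPM in the libraries labelled KO, against 174 and 181 CPM in those labelled WT (log2 change 0.05, SE 0.07, adjusted p = 0.759). Mdh1 ranged between 142 and 152 CPM and the fumarase gene Fh1 between 31.3 and 34.8 CPM, each with both KO values above both WT values.

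By the order of the 4 values alone, both libraries labelled KO lay above both labelled WT for 11 of the 32 genes (34.4%), beside 21.6% of all tested genes, and 7 of these 11 were TCA cycle genes: Cs, Idh3a, Dlst, Dld, Fh1, Mdh1 and Mdh2. The other 4 were Acadm, Hadh, Etfdh and Ppargc1b. Both KO values lay below both WT values for 6 genes (18.8%), beside 23.1% of all tested genes, and these were Cpt1a, Acadvl, Acads, Eci1, Ucp2 and Idh3b. Idh3b is among them on 90.79 CPM in KO at 24 h against 90.81 CPM in WT at 12 h, and Dlst among the first 11 on 102.8 CPM in KO at 24 h against 102.7 CPM in WT at 12 h. These counts depend on the scaling: with library totals alone, 17 genes lay above (32.4% of all tested genes) and 3 below, namely Cpt1a, Eci1 and Ucp2 (14.8% of all tested genes). The 11 genes above were all among those 17. The summed level of the 14 TCA cycle genes was 1396 and 1397 CPM in the libraries labelled KO, against 1337 and 1364 CPM in those labelled WT, a ratio of 1.04 and 1.02. A list of 25 genes for mitochondrial import, porins and carriers, which stands for mitochondrial content, summed to 2819 and 2552 CPM in the libraries labelled KO, against 2591 and 2479.6 CPM in those labelled WT, a ratio of 1.09 and 1.03. The part of mitochondrial content in the TCA cycle values was not tested.

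**Figure D5:**
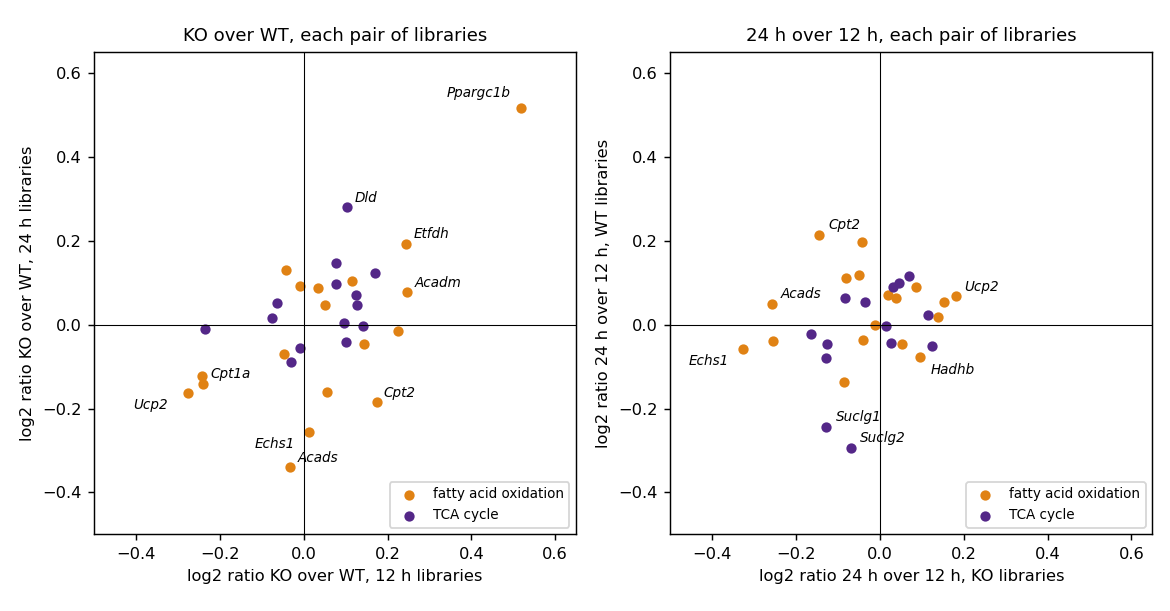
Log2 ratio of CPM plus 1 for the 32 genes, KO over WT at 12 h (x) against 24 h (y) on the left, and 24 h over 12 h in KO (x) against WT (y) on the right; each point is 1 gene, orange for fatty acid oxidation and purple for the TCA cycle. Ppargc1b stands alone at the upper right of the left panel at 0.52 in both ratios, and Cpt2 lies in a quadrant of opposite signs in both panels; the 4 ratios share libraries.

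The later time was compared with the earlier one in the same model. None of the 32 genes was called in either direction, beside 1.05% of all tested genes called higher at 24 h, 1.21% lower and 2.26% in either direction. At an unadjusted p under 0.05 there were 3 of the 32, Echs1, Suclg1 and Ucp2, beside 1347 of the 10993 tested genes. These shares are near each other, and the difference was not tested. DESeq2 likewise called 0 of the 32, with 0 at an unadjusted p under 0.05. The median log2 change was 0.01 over the 32 genes, 0.02 over fatty acid oxidation and -0.002 over the TCA cycle, beside -0.004 over all tested genes. Suclg1 had 52.1 CPM in KO and 50.2 CPM in WT at 24 h, against 57.0 CPM in KO and 59.6 CPM in WT at 12 h (log2 change -0.19, SE 0.09, adjusted p = 0.372). Echs1 had 50.2 CPM in KO and 60.2 CPM in WT at 24 h, against 63.2 and 62.7 CPM at 12 h (log2 change -0.19, SE 0.09, adjusted p = 0.365), with a fold of 0.795 (0.748 to 0.844) between the libraries labelled KO and 0.960 (0.907 to 1.02) between those labelled WT. Ucp2 had 688 CPM in KO and 770.2 CPM in WT at 24 h, against 607 and 735 CPM at 12 h (log2 change 0.12, SE 0.06, adjusted p = 0.399). Both 24 h values lay above both 12 h values for 3 genes (9.38%), Hadha, Idh3g and Ogdh, beside 15.2% of all tested genes. Both lay below for 6 genes (18.8%), Echs1, Etfa, Etfb, Pdhb, Suclg1 and Suclg2, beside 16.9% of all tested genes. Library totals alone gave 4 above and the same 6 below, beside 11.8% and 19.7% of all tested genes.

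Promoters were searched for the letters bound by known regulators of oxidation. RefSeq windows on GRCm38.p6, of 250 bases before and 50 after each start, matched 30 of the 32 genes with 35 windows, all but Ppargc1b and Idh3a. Shown here are the window of Ucp2, the called gene with a window, and those of Etfdh and Acadm, the fatty acid oxidation genes whose window holds an NRF1 motif, in capitals. All 3 read 5′ to 3′ on the gene's own strand.
Ucp2, chr7:100493108-100493407, plus strand: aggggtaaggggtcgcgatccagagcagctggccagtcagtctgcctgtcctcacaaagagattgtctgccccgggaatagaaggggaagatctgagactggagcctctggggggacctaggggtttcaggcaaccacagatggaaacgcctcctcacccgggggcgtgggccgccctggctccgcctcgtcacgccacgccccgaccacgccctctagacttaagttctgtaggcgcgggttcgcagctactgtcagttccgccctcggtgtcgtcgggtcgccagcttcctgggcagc
Etfdh, chr3:79628718-79629017, minus strand: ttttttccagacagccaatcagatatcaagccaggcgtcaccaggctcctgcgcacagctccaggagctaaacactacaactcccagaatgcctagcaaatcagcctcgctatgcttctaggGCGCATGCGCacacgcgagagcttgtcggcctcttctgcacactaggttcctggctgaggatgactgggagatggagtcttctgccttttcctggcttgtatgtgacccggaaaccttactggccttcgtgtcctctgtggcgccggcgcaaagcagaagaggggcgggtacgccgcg
Acadm, chr3:153944594-153944893, minus strand: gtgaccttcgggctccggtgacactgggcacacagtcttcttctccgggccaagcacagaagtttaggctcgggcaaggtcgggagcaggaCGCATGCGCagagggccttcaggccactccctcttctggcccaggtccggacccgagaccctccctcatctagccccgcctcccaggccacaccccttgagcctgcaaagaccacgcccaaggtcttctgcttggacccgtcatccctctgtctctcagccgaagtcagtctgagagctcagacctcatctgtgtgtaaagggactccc

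The searched letters, on both strands and as exact matches, were TCAAGGTCA for the estrogen-related receptors, GGTCAAAGG for the centre of a PPAR with RXR site, CCGGAAGTG for GABP and other ETS factors, GCGCATGCG for NRF1, GTAAACA for FoxO factors and TGACGTCA for CREB. No 2 different motifs overlapped in these windows. In Etfdh the NRF1 letters occurred on both strands, first at 128 and 127 bases before the start in an overlapping pair, and in Acadm once at 159 bases before the start. NRF1 letters occurred in 4 of the 35 windows (Acadm, Etfdh and Ogdh), beside 1.75% of 32851 windows of all genes and 3.77% of 11398 windows of tested genes. CREB letters occurred in 4 windows (Mdh2 and Ogdh), beside 1.79% and 3.04% of the same windows, and ETS letters in 2 (Cpt2 and Dlst), beside 2.03% and 4.55%. The 3 Ogdh windows with CREB letters overlap each other and share 1 site. Its 2 windows with NRF1 letters lie elsewhere, overlap each other and share another. The estrogen-related receptor, PPAR with RXR and FoxO letters occurred in none of the 35, beside 0.423%, 0.344% and 3.65% of windows of all genes and 0.254%, 0.254% and 2.57% of windows of tested genes. The Ucp2 window held none of the 6. A match is a description of these letters in this window and not a bound site.

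Of 38 tested genes of fatty acid activation and oxidation, 1 was called, Ech1, a dienoyl-CoA isomerase, with 78.3 and 69.8 CPM in the libraries labelled KO, against 62.8 and 60.9 CPM in those labelled WT (log2 change 0.26, SE 0.08, adjusted p = 0.0416). Beside 9.84% of all tested genes called for genotype, 1 of 22 further TCA cycle and pyruvate genes was called. This was Nnt, the proton-driven transhydrogenase that makes matrix NADPH, with 22.9 and 20.8 CPM in the libraries labelled KO, against 66.8 and 68.0 CPM in those labelled WT (log2 change -1.62, SE 0.10, adjusted p = 9.58e-14). It had the largest genotype change of the tested genes in the 6 lists, and its call held under all 11 alternatives run. Part of Nnt is deleted in one C57BL substrain, as background, and the labels used here give no strain.

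Among 16 cytosolic and anaplerotic partners, Acod1, which makes itaconate from the cycle intermediate cis-aconitate, had 34.9 and 62.4 CPM in the libraries labelled KO, against 33.0 and 39.9 CPM in those labelled WT. It was called for genotype (log2 change 0.38, adjusted p = 0.0193) and for time (0.57, adjusted p = 0.00154), and the KO library at 24 h stood apart from the other 3. Without that library the genotype change was -0.06 and the time change 0.23, the genotype change was 0.78 without the KO library at 12 h, and the time change was 0.88 without the WT library at 24 h. Each of these fits also drops the other term, so that its estimate mixes genotype and time. By the CPM values, KO lay above WT at both times and 24 h above 12 h in both labels. Slc25a13, a mitochondrial aspartate-glutamate carrier, was also called higher (0.31, adjusted p = 0.0382). In all, 2 of these 16 genes were called for genotype, beside 9.84% of all tested genes.

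Of 26 tested regulators, 3 were called for genotype and none for time, beside 9.84% and 2.26% of all tested genes. Pparg, a lipid-activated nuclear receptor that IL-4 induces in macrophages, had 199.5 and 221 CPM in the libraries labelled KO, against 170.2 and 173 CPM in those labelled WT (log2 change 0.29, SE 0.07, adjusted p = 0.00437). Its partner Rxra had 186 and 178 CPM in the libraries labelled KO, against 219 and 227 CPM in those labelled WT (log2 change -0.29, SE 0.07, adjusted p = 0.00349). Prkaa1, a catalytic subunit of the energy sensor AMPK, was called higher (0.26, adjusted p = 0.0412). The sister coactivator of PGC-1β, Ppargc1a, had 1 count in the WT library at 12 h and 0 in the other 3, and Ppara at most 6 counts, so neither could be compared at this depth.

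In fatty acid supply, 3 of 19 tested genes were called for genotype, beside 9.84% of all tested genes. Angptl4, a secreted inhibitor of lipoprotein lipase, had 12.7 and 20.5 CPM in the libraries labelled KO, against 22 and 28.9 CPM in those labelled WT (log2 change -0.63, SE 0.12, adjusted p = 5.13e-04), and it was called higher at 24 h (0.52, adjusted p = 0.0129). The Angptl4 genotype change was -0.31 without the KO library at 12 h, -0.41 without the WT library at 24 h and -0.99 without the KO library at 24 h. Its time change was 0.17, 0.24 and 0.95 without KO at 12 h, WT at 24 h and WT at 12 h in turn. The fits with a library left out drop the other term, so that their Angptl4 changes mix genotype and time. DESeq2 did not call Angptl4 for time (adjusted p = 0.129). The fatty acid binding protein genes Fabp3 (-0.62, adjusted p = 0.0139) and Fabp5 (0.18, adjusted p = 0.0404) were called in opposite directions, and without the KO library at 12 h the Fabp5 change was 0.0969. Lipa, the lysosomal acid lipase, was called higher at 24 h (0.24, adjusted p = 0.0122). In the mitochondrial content list the chaperonin gene Hspd1 was called higher in KO (0.25, edgeR adjusted p = 0.0151). The adenine nucleotide carrier Slc25a5 was called lower at 24 h (-0.30, edgeR adjusted p = 0.00813). Of the 11 genotype calls in these 6 lists, DESeq2 kept 4 (Nnt, Pparg, Rxra and Angptl4) and the fit without the time term kept Nnt alone. On leaving out 1 library, the Nnt call held without each of the 4, those of Pparg, Rxra and Acod1 held without the KO library at 12 h, and those of Angptl4 and Ech1 without the KO library at 24 h. The other 5 genotype calls, and all 4 time calls of these lists, were lost without any 1 library. Median genotype changes of the lists were 0.06 for fatty acid oxidation, 0.05 for the TCA cycle, -0.003 for cytosolic partners, 0.01 for regulators, -0.13 for fatty acid supply and 0.07 for mitochondrial content.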

How the data were processed

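One table from the authors holds raw counts and FPKM for each gene in each library. The tools named are StringTie 1.3.0, HISAT2 and edgeR, with the mm10 genome, per the submitters' processing notes. Their roles, the counting tool and the annotation release remain not given in the sources used here. Deposited FPKM differ from the counts by gene length and library total alone (largest relative deviation 1.13e-13). The labels' protocols name an mRNA capture kit and do not say whether strand was kept, so reads of a gene and of an overlapping antisense partner cannot be told apart; exons of 10 of the 32 genes overlap another gene, with counts for 8 of the partners.

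Counts were scaled with TMM factors over all genes and kept from 1 CPM in 2 or more libraries. The edgeR 4.0.16 quasi-likelihood test under R 4.3.3 had genotype and time as terms, 4 libraries and 1 residual degree of freedom, which also holds any genotype-by-time difference; p-values are two-sided, adjusted by Benjamini-Hochberg over 10993 genes, and called under 0.05. The fit was also run on simulated counts with the same spread for every gene and no genotype-by-time difference. That setting cannot test spread that differs between genes, and no result here rests on it. The common dispersion was 0.00602 (7.76% biological coefficient of variation). Ratios of 2 libraries are log2 of CPM plus 1 over CPM plus 1 and have no test. Folds carry exact (Clopper-Pearson) 95% binomial intervals. These cover counting error only, since each ratio has 1 library on each side. No molecular identifiers were used, so duplicate reads, if any, are counted as separate and would make that error understated. Positions are from GENCODE M21 on GRCm38, where 14488 of 14936 symbols matched.

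Full statistics were given for called genes, values for the most abundant gene per base of each of 11 functional groups, and the called genes of 6 further lists; other genes were singled out after their values were seen. The genes and lists were chosen with earlier results of these data known. Alternatives were other scalings, filters, DESeq2 1.42.0, the older edgeR method, 1 term alone, and each library left out (with 1 term, so that a residual is left).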

Additional observations from a re-analysis of the deposited data

Results flagged for a closer look

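In 2 genes the 2 ratios of one kind pointed opposite ways, each with a counting interval that leaves out 1; the difference between the ratios was not tested, and with 1 library per group there is no replicate check. Cpt2 was 1.13-fold higher in KO than in WT at 12 h (1.03 to 1.25) and 0.874-fold at 24 h (0.790 to 0.967). Between times, Cpt2 stood at 0.901-fold at 24 h over 12 h in KO (0.816 to 0.994) and at 1.17-fold in WT (1.06 to 1.29). These 4 ratios come from the same 4 libraries and are not independent of each other. Hadhb stood at 1.07-fold at 24 h over 12 h in KO (1.02 to 1.13) and at 0.947-fold in WT (0.897 to 0.999).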

How the results depend on the processing

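With 1 library per group, the fit leaves 1 residual degree of freedom. The edgeR calls rest on it together with a spread shared over the tested genes (median prior degrees of freedom 29.3). No library can be left out without dropping a term. No paired analysis was possible because each group has 1 library, so the groups share fewer than 2 replicate numbers. Of the 32 genes, 1 was called higher and 1 lower for genotype; both counts were 0 with DESeq2, without the other term and with each library left out (0 to 0), and the lower count was 0 without the low-count filter. Time gave 0 under every alternative run. Over all genes the genotype counts were 478 higher and 604 lower, against 219 and 298 with DESeq2, 284 and 368 without the filter, 119 and 157 without the time term, and 73 to 272 and 79 to 341 with a library left out. Time counts were 115 and 133, against 54 and 55 with DESeq2, 76 and 87 with TMM over tested genes (chosen after seeing the data), 29 and 39 without the filter, 0 and 0 without the genotype term (359 genes at an unadjusted p under 0.05) and 0 to 0 with a library left out (261 to 593). Single genes were followed for 24 of the genes and contrasts named with a test. These were the called genes of the 32 and of the further lists, Phlpp1, and those of the 32 with an unadjusted p under 0.05. Other genes given with an adjusted p were not followed. Of 264 alternatives, 162 kept direction and side of the threshold, and 100 kept direction and lost the call. Cpt1a, Etfdh and Dld for genotype and Echs1, Suclg1 and Ucp2 for time were not called in the main fit, so they had no call to lose. The sign changed in 2: Acod1 for genotype (-0.0602 to 0.7767 with a library left out) and Ucp2 for time (-0.0114 to 0.2654). Both came from fits with a library left out, which drop the other term and mix genotype with time. Between libraries that share the other label, Acod1 was higher in KO at both times and Ucp2 higher at 24 h in both genotypes. Principal transcript lengths, chosen after seeing the data, moved the mean ratios to 1.43 for Hadha over Hadhb, 0.744 for Etfa over Etfb, 1.14 for Idh3b over Idh3g, 0.725 for Pdha1 over Pdhb and 10.4 for Suclg1 over Suclg2. With library totals alone, KO over WT ratios move by a log2 of 0.05 at 12 h and 0.06 at 24 h, and the fatty acid oxidation median at 24 h is 0.03 in place of -0.03. That scaling was chosen after seeing the data for the counts that follow. Both KO values lay above both WT values for 17 of the 32 genes in place of 11, beside 32.4% of all tested genes in place of 21.6%. They lay below for 3 in place of 6, beside 14.8% of all tested genes in place of 23.1%. The cause was not tested.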
